A study of Mus musculus with 24 samples.

Results

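Stem and progenitor marker genes other than keratins were followed in mouse lacrimal gland (LG) and in spheres of lacrimal gland stem cells (LGSCs): Trp63, Sox2, Bmi1, Kit, Cd44, Ly6a, Prom1, Abcg2 and Nes. They were chosen by name as a fixed list, and all 9 were found by their Ensembl identifiers among the 52636 identifiers in the expression tables. Every mouse was C57BL/6. LGSCs came from glands of donors aged 6 to 8 weeks and were grown as spheres in Matrigel, a basement membrane gel, in serum-free medium with EGF, FGF10, Wnt3A and Y-27632. Passage 2 spheres were taken at day 5 (2 libraries), day 7, day 10 and day 14 (3 libraries each), and passage 10 spheres at day 7 (1 library). Whole LG was taken from adults and from embryos at E17.5 and E19.5 (3 libraries each). Of the 24 samples listed for the series, 21 were used, and the third day 5 replicate and passages 6 and 20 were not analysed here. The labels do not say which libraries came from separate animals or cultures, so p-values measure only the spread between these libraries. Whole gland holds many cell types and the spheres are cultured cells, so fewer cells of a type and less RNA per cell cannot be told apart.

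The 9 genes mark stem and progenitor cells in different ways. Trp63 encodes p63, the transcription factor that keeps basal cells of stratified and glandular epithelia able to renew, and Sox2 is a pluripotency factor that also marks progenitors of several epithelia. Bmi1 is a subunit of Polycomb repressive complex 1 (PRC1), which silences the cell cycle inhibitor locus Cdkn2a. Kit is the receptor tyrosine kinase for stem cell factor, the product of Kitl, and is used to sort epithelial progenitors of exocrine glands, while mast cells and melanocytes also depend on it. Cd44 is the receptor for hyaluronan, Ly6a encodes the surface antigen Sca1, and Prom1 encodes CD133, a glycoprotein of membrane protrusions. Abcg2 is the efflux pump behind the dye-excluding side population, and is also made by endothelium. Nes encodes nestin, an intermediate filament protein of progenitor cells that assembles with vimentin.

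The study followed P63 and nestin by PCR over passages of LGSC spheres, with passage 10 among those shown and passage 2 not. The primers are shown because they fix which part of each gene was read by that assay. For Trp63 (chr16:25683763-25892102, plus strand, GRCm38) the forward primer lies at chr16:25863742-25863761 and the reverse primer at chr16:25866184-25866203, both in coding exons and 2 exons apart. Both primers were found in 5 of the 8 Trp63 transcripts of GENCODE M21, with a product of 288 bases in each. For Nes (chr3:87971078-87980451, plus strand) the primers lie at chr3:87978177-87978196 and chr3:87978370-87978389, within 1 coding exon, and both were found in 2 of 3 transcripts with a product of 213 bases. The primers, written 5′ to 3′, were as follows.
Trp63 forward: tcctatcacgggaaggcaga
Trp63 reverse: gtaccatcgccgttctttgc
Nes forward: ggggctacaggagtggaaac
Nes reverse: gacctctagggttcccgtct

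Kit and Abcg2 were the members measured best, and both were lower in spheres than in gland, so a stretch before a RefSeq start of each is shown (GRCm38.p6, plus strand). The Kit stretch is chr5:75574737-75574915, just before the gene body at chr5:75574916-75656722, and the Abcg2 stretch is chr6:58640296-58640545, before 1 of 3 RefSeq starts inside the gene at chr6:58584523-58695676. That start was picked for having the most CG pairs, a choice that leans toward GC boxes, and the window at chr6:58584283-58584582 held none. Capitals mark GC boxes, GGGCGG on either strand. There is 1 in the Kit stretch and there are 4 in the Abcg2 stretch, and of 32851 windows of 300 bases around RefSeq starts 35.7% hold at least 1. Both stretches are shorter than those windows, so the share is no like measure for them.
Kit: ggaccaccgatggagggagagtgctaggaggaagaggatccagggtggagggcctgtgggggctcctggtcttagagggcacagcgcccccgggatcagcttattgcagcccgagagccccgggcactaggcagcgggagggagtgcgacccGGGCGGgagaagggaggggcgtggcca
Abcg2: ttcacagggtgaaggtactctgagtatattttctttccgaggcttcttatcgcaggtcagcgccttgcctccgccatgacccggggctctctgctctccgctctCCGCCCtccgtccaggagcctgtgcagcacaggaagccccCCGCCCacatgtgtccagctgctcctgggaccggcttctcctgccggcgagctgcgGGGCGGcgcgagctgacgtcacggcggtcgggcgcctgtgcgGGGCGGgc

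Levels are given as FPKM, the authors' fragment values scaled to gene length and to a size set for each library, which was not its number of reads. Reads per gene were recovered from the steps of the values, and the 20 passage 2 and gland libraries held between 6434258 and 9256986 of them. Passage 10 held 25172924 and was made with another list of assembled loci. The recovered reads were 2.67 and 2.57 times the size used for scaling in adult LG replicates 1 and 2, and 0.832 to 1.13 times it in the other libraries. Levels in those 2 adult libraries are therefore higher, relative to the rest, than their share of reads. Among 5327 genes at 10 FPKM or more in passage 10, 2691 (50.52%) had a day 7 mean under 0.1 of that level and 574 (10.78%) were listed at 0 in all 20 other libraries, whereas of 3266 genes at 10 FPKM or more at day 7 only 50 (1.531%) were under 0.1 of it in passage 10. Genes that every cell uses were among those at or near 0 in the 20 libraries: Hprt had a day 7 mean of 0.575 FPKM against 99.4 in passage 10, and Eef1a1 one of 0.113 against 3461. The epithelial markers Cdh1 (day 7 mean 616 FPKM) and Krt18 (671) were measured in the spheres, while Epcam and Krt8 were listed at 0 in all 20 libraries and at 261 and 414 FPKM in passage 10. Acinar cell markers summed to at least 246700 FPKM in adult LG, to at most 91.4 in the embryonic glands and to at most 98.3 in the spheres. A low or zero level in the 20 libraries is therefore not read as absence, levels of different genes in these libraries are not compared, and what set the low values was not tested. Adult LG replicate 3 stood apart from the other adult libraries, with 31.3% of its reads in its 10 most counted genes against 60.4% and 59.6%, and results that turn on it are given with and without it.

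Only 3 of the 9 members, Kit, Abcg2 and Bmi1, averaged 0.5 FPKM or more over the libraries fitted together and were tested, and the same 3 were tested in each of the 8 comparisons. Trp63, Cd44, Ly6a, Prom1 and Nes were above 0 in some of the 20 libraries but under that level, and Sox2 was listed at 0 in every one of them. Kit and Abcg2 were lower in day 7 spheres than in adult, E17.5 and E19.5 LG, and Bmi1 was higher in E17.5 LG than in adult LG. The tests were fitted with limma on log2(FPKM + 1) over all genes. P-values were adjusted over all of them by the Benjamini-Hochberg method, and a change was called where the adjusted p was under 0.05.

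**Figure D1:**
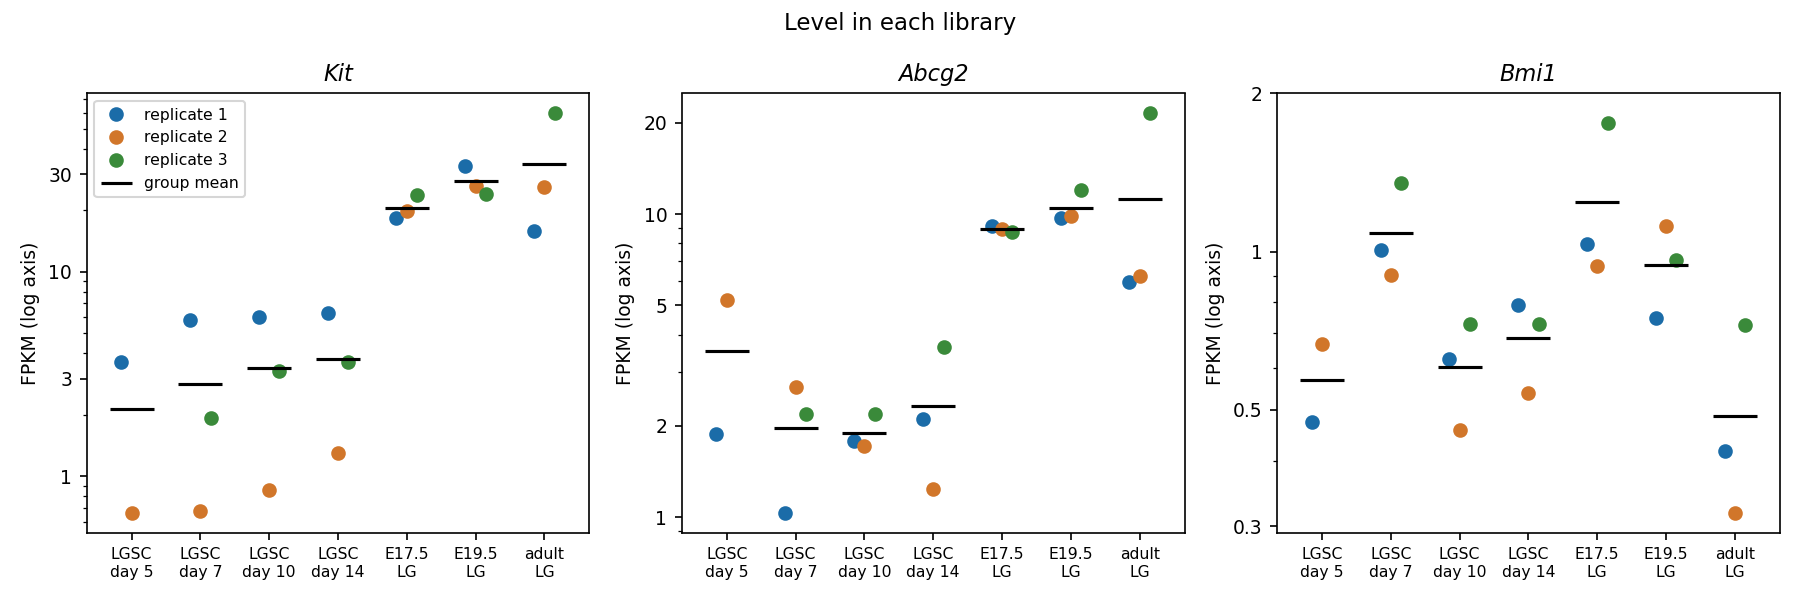
FPKM on a log axis of Kit, Abcg2 and Bmi1 in each passage 2 sphere and gland library, with points coloured by replicate number and a black bar at the group mean. Every gland library lies above every sphere library for Kit and for Abcg2, while the Bmi1 values of spheres and glands overlap.

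Kit, the stem cell factor receptor, was lower in FPKM in every sphere library than in any gland library. By share of recovered reads Kit did not keep this order. It had 339 of 6434258 reads in adult LG replicate 1 and a larger share, 482 of 7833160, in day 7 replicate 1. Its levels were 15.8, 26.0 and 59.6 FPKM in the adult libraries, 18.3, 19.8 and 23.6 FPKM at E17.5, and 33.0, 26.3 and 24.1 FPKM at E19.5. In day 7 spheres it was at 5.84, 0.675 and 1.93 FPKM. The highest of the 11 sphere libraries was at 6.32 FPKM, at day 14. The group means were 33.8 ± 22.9 FPKM in adult LG, 27.8 ± 4.63 at E19.5, 20.6 ± 2.76 at E17.5 and 2.82 ± 2.70 in day 7 spheres (SD, n = 3 each). The adult values spanned those of both embryonic ages, and E19.5 lay wholly above E17.5. Without adult LG replicate 3 the adult mean was 20.9 FPKM, below that of E19.5.

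On the log2(FPKM + 1) scale Kit was lower in day 7 spheres than in adult LG by a difference of -3.22 (SE 0.65, adjusted p = 0.0107, limma), with a mean FPKM 12-fold higher in the gland, or 7.42-fold without adult LG replicate 3. Against E17.5 LG the difference was -2.73 (SE 0.49, adjusted p = 0.00493) and against E19.5 LG -3.15 (SE 0.49, adjusted p = 0.0024). Kit and Abcg2 were the 2 members called in each of these comparisons, in which 35.2%, 47.6% and 50.7% of all tested genes were called, and 21.1%, 29.6% and 32% were called lower in spheres. The groups did not overlap for either gene in any of them, as was so in that direction for 29.5%, 35.4% and 37.1% of all tested genes. Without adult LG replicate 3 the difference from adult LG was -2.72 (adjusted p = 0.0202).

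Markers of mast cells, which carry Kit on their surface, were also lower in day 7 spheres than in gland, but did not follow Kit between gland ages. Of 7 mast cell markers, 6 were called lower in day 7 spheres than in E17.5 LG and 6 than in E19.5 LG, and 3 of the 3 tested were lower than in adult LG. Of all tested genes 29.6%, 32% and 21.1% were called lower there. The markers summed to at most 0.302 FPKM at day 7, so they passed the 0.5 FPKM filter only through gland libraries and could only come out lower. Their summed level was 1675 to 2183 FPKM at E17.5, 2765 to 3870 at E19.5 and 17.0 to 62.7 in adult LG. All 6 tested were called higher at each embryonic age than in adult LG, where 54% and 54.2% of all tested genes were called, and Kit was not. In the 11 sphere libraries the sum never exceeded 0.785 FPKM. Tpsb2 and Ms4a2 were at 0 in all of these and in all adult LG libraries, and such zeros are not read as absence. The sum was 0.366 FPKM in passage 10. Melanocyte markers were low everywhere, with sums of 1.09 to 1.93 FPKM in adult LG, 5.34 to 8.52 in embryonic LG and 0.401 to 1.28 in spheres. The part of either cell type in the Kit levels was not tested.

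In the glands themselves Kit was not called between ages. The difference of E17.5 from adult LG was -0.49 (SE 0.40, adjusted p = 0.332) and that of E19.5 from adult LG -0.08 (SE 0.40, adjusted p = 0.886). Without adult LG replicate 3, the library with the highest Kit level, these became 0.01 (adjusted p = 0.97) and 0.42 (adjusted p = 0.135), and without adult LG replicate 1 the first became -0.92 (adjusted p = 0.0486), so the sign and the call rested on single adult libraries. From E17.5 to E19.5 the difference was 0.41 (SE 0.40, adjusted p = 0.729, 95% interval -0.51 to 1.34), although E19.5 lay above E17.5 in every library, as for 19.8% of all tested genes.

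Within the sphere culture, Kit differed more between replicate numbers than between days. Replicate 1 held 3.60, 5.84, 6.04 and 6.32 FPKM at days 5, 7, 10 and 14, replicate 2 held 0.662, 0.675, 0.860 and 1.30, and replicate 3 held 1.93, 3.26 and 3.62 at days 7, 10 and 14. At each day replicate 1 was highest and replicate 2 lowest, and replicate 2 never reached any value of the other two. Kit was higher at the later day in 8 of 8 steps between consecutive days within a replicate number, as were 0.552% of the 15584 genes tested over these libraries. The smallest step, from 0.662 to 0.675 FPKM in replicate 2, rested on 40 and 47 reads, whose 95% counting intervals overlapped. This count was made after the values were seen.

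The slope of Kit over culture days was 0.07 per day on the log2(FPKM + 1) scale (SE 0.07, adjusted p = 0.643, limma), and day 14 differed from day 7 by 0.40 (SE 0.62, adjusted p = 0.843). No member was called in either, where 2.14% and 0% of all tested genes were called. Both fits left the replicate number out, so their SE holds the spread between replicate numbers. At an unadjusted p under 0.05, 0 of the 3 tested members passed in either, where 19% and 9.89% of all tested genes did, and limma-voom, run on the recovered reads, called 0 members as well. Without the filter on low values, Prom1 and Ly6a passed that unadjusted level for the slope in limma, with adjusted p-values of 0.297 and 0.318. Same-numbered sphere libraries deviated together across days, so the fit with the replicate number as a block is given beside the slope: it was 0.06 per day (adjusted p = 0.0705). Limma-voom with the block gave 0.10 per day (adjusted p = 0.0273), the 1 fit of the slope that called Kit. Between day 14 and day 7, where libraries also pair by number, no alternative called Kit, Abcg2 or Bmi1, the block among them.

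**Figure D2:**
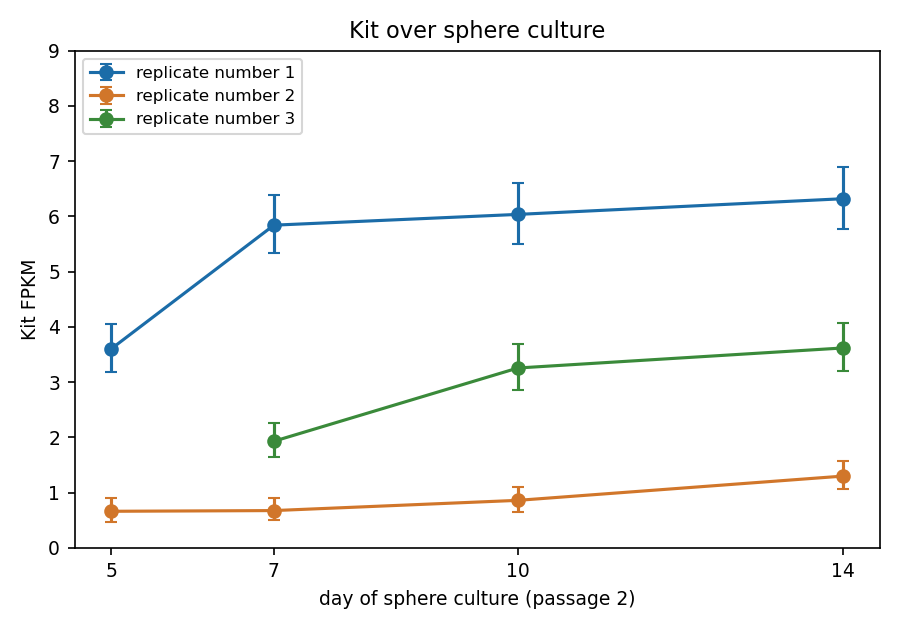
Kit FPKM (vertical axis, from 0) against day of sphere culture at passage 2, with 1 line for each replicate number and bars for the exact 95% Poisson interval of the recovered reads. Replicate number 1 lies between 3.60 and 6.32 FPKM, replicate number 3 between 1.93 and 3.62 and replicate number 2 between 0.662 and 1.30.

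The other genes of Kit signalling were measured in part. Kitl, the ligand, was listed at 0 in 15 of the 20 libraries and never above 0.0647 FPKM, and stood at 7.14 FPKM in passage 10. Of the 8 genes in this list, 3 were tested between day 7 spheres and E17.5 LG and all 3 were lower, as were 29.6% of all tested genes, with a median of -2.46 against -0.10 over all genes. The feedback inhibitor Spry4 (-4.37, SE 0.10, adjusted p = 1.4e-06, limma), its relative Spry2 (-2.46) and the adaptor Gab2 (-0.95) were the 3. Against adult LG, 3 of 4 tested were lower, beside 21.1% of all tested genes, namely Spry4 (-1.95), Gab2 (-1.39) and the transcription factor Etv1 (-1.23). Kit itself had 0 reads in passage 10, which allows up to 0.0142 FPKM (3 reads), in a library where 1 read is worth less than in any other. Passage 10 is a single library and no test was made of that difference.

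Abcg2, the efflux pump, was also lower in FPKM in every sphere library than in any gland library. By share of recovered reads Abcg2 did not keep this order either. It had 117 of 6434258 reads in adult LG replicate 1 and a larger share, 287 of 7655339, in day 5 replicate 2. It was at 5.95, 6.23 and 21.5 FPKM in adult LG, 9.11, 8.93 and 8.72 FPKM at E17.5, and 9.71, 9.82 and 11.99 FPKM at E19.5. Day 5 spheres held 1.88 and 5.19 FPKM, whereas day 7 spheres held 1.03, 2.68 and 2.19 FPKM. Day 10 gave 1.79, 1.72 and 2.18 FPKM and day 14 gave 2.11, 1.24 and 3.65 FPKM. The closest pair of a gland and a sphere library was 5.95 FPKM in an adult gland and 5.19 FPKM at day 5, the day with the highest sphere mean.

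Abcg2 was lower in day 7 spheres than in adult LG by a difference of -1.85 (SE 0.51, adjusted p = 0.0308, limma), than in E17.5 LG by -1.78 (SE 0.23, adjusted p = 0.00121) and than in E19.5 LG by -1.99 (SE 0.24, adjusted p = 0.000812). The mean FPKM was 5.70-fold, 4.53-fold and 5.34-fold higher in the glands, and the first became 3.09-fold without adult LG replicate 3. The call against adult LG was lost without any 1 of the 3 day 7 libraries, with adjusted p-values of 0.102, 0.0608 and 0.0803 without replicates 1, 2 and 3, and it remained without adult LG replicate 3, at -1.30 (adjusted p = 0.0181). The calls against both embryonic ages were lost in no such fit.

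Between gland ages, the Abcg2 call depended on adult LG replicate 3, which held 21.5 FPKM. With it, E17.5 differed from adult LG by -0.07 (SE 0.40, adjusted p = 0.896) and E19.5 by 0.14 (SE 0.40, adjusted p = 0.793). Without it, Abcg2 was higher at E17.5 by 0.49 (adjusted p = 0.00559) and at E19.5 by 0.69 (adjusted p = 0.000929). E19.5 against E17.5 gave 0.21 (SE 0.40, adjusted p = 0.900), with groups that did not overlap, as for 19.8% of all tested genes in that direction. Over culture days Abcg2 gave a slope of -0.02 per day (SE 0.04, adjusted p = 0.794).

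Markers of endothelium, a known source of Abcg2, were lower in spheres than in the glands. The 8 endothelial markers summed to 59.1 to 221 FPKM in adult LG, 161 to 192 at E17.5 and 219 to 272 at E19.5, and to at most 0.348 FPKM in any of the 11 sphere libraries, where Kdr and Emcn were listed at 0. In passage 10 the sum was 2.23 FPKM, also with Kdr and Emcn at 0. All 5 tested were lower in day 7 spheres than in each of the 3 gland groups, where 21.1%, 29.6% and 32% of all tested genes were called lower. Their sum in spheres was under the 0.5 FPKM filter, so these markers were tested only through their gland levels. Lower in spheres was the only direction they could show. Their part in the Abcg2 levels was not tested.

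Other ABC transporters did not share one direction. Abcc1, an exporter of glutathione conjugates, was higher in day 7 spheres than in adult LG (3.03, SE 0.35, adjusted p = 0.0015, limma), E17.5 LG (2.39) and E19.5 LG (2.34). Abcc4, a pump for cyclic nucleotides, was higher than in E17.5 LG (0.91) and E19.5 LG (0.60), and it was the 1 transporter of the 3 tested whose slope over culture days was called, at 0.15 per day (adjusted p = 0.032). Against adult LG Abcc4 had the lower mean in day 7 spheres, 40.2 FPKM against 56.2, and was not called. Abcb1a was listed at 0 in all 20 libraries. Abcg2 was at 1.15 FPKM in passage 10 (222 reads), within its range in passage 2 spheres.

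Bmi1, the PRC1 subunit, lay between 0.318 and 1.76 FPKM in the 20 libraries, with 4 to 56 reads each. It was at 1.04, 0.940 and 1.76 FPKM at E17.5, at 0.748, 1.12 and 0.962 FPKM at E19.5, and at 0.417, 0.318 and 0.726 FPKM in adult LG. Day 7 spheres held 1.01, 0.901 and 1.35 FPKM, and the other spheres held less, with 0.474 and 0.668 FPKM (day 5), 0.626, 0.457 and 0.727 FPKM (day 10), and 0.791, 0.537 and 0.727 FPKM (day 14). Both embryonic groups lay above all adult libraries, as for 32.3% of all tested genes at the earlier age and 33% at the later one. The difference of E17.5 from adult LG was 0.59 (SE 0.18, adjusted p = 0.0248, limma), the 1 member called in that comparison, where 54% of all tested genes were called and 29.1% were higher. The call was lost with limma-voom on the recovered reads (1.01, adjusted p = 0.0669), and without adult LG replicate 1 (adjusted p = 0.0584), adult LG replicate 2 (0.0778) or E17.5 LG replicate 3 (0.0825).

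Bmi1 was not called at E19.5 against adult LG (0.39, SE 0.18, adjusted p = 0.102), where 54.2% of all tested genes were called and no member was. Without adult LG replicate 3, both Bmi1 (0.50, adjusted p = 0.0419) and Abcg2 were called there. No member was called between E19.5 and E17.5 LG, where 1.74% of all tested genes were. At an unadjusted p under 0.05, 0 of the 3 tested members passed in either comparison, where 59.8% and 15.3% of all tested genes did, and limma-voom called 0. Without the filter on low values, Cd44 passed it for E19.5 against E17.5 LG (adjusted p = 0.197, limma). Day 7 spheres differed from adult LG by 0.49 (SE 0.20, adjusted p = 0.0977), from E17.5 LG by -0.09 (SE 0.18, adjusted p = 0.692) and from E19.5 LG by 0.10 (SE 0.14, adjusted p = 0.584). The Bmi1 difference from adult LG was called without adult LG replicate 3 (0.60, adjusted p = 0.038) and with all 20 libraries in 1 fit (0.49, adjusted p = 0.017). Day 7 spheres lay above day 14 spheres in every library (difference of day 14 -0.30, SE 0.16, adjusted p = 0.558, limma without the replicate block), as 9.12% of all tested genes did. Bmi1 was at 13.2 FPKM in passage 10, and its day 7 mean was 0.0824 of that, which places it among the genes far below their passage 10 level.

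Of 18 genes of PRC1 and its target, 11 were tested between E17.5 and adult LG, 5 being higher and 1 lower with a median of 0.34 against 0.05 over all genes. These 6 of 11 are close to the 54% of all tested genes called in that comparison. The catalytic subunit Rnf2 was higher at E17.5 (1.11, SE 0.15, adjusted p = 0.00029, limma), as were the accessory subunit Rybp (1.28) and the chromobox protein Cbx8 (1.24). Against day 7 spheres the counts were mixed, with 3 of 11 higher and 4 lower in spheres than in E17.5 LG, beside 47.6% of all tested genes called. Cdkn2a, the locus that PRC1 silences, was higher in day 7 spheres than in adult LG (5.99, SE 0.20, adjusted p = 3.6e-05), E17.5 LG (5.70) and E19.5 LG (5.80). Its mean was 68.0 to 101 FPKM in the 4 sphere groups and 0.0897 to 0.332 FPKM in the 3 gland groups, and it was at 98.3 FPKM in passage 10.

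**Figure D3:**
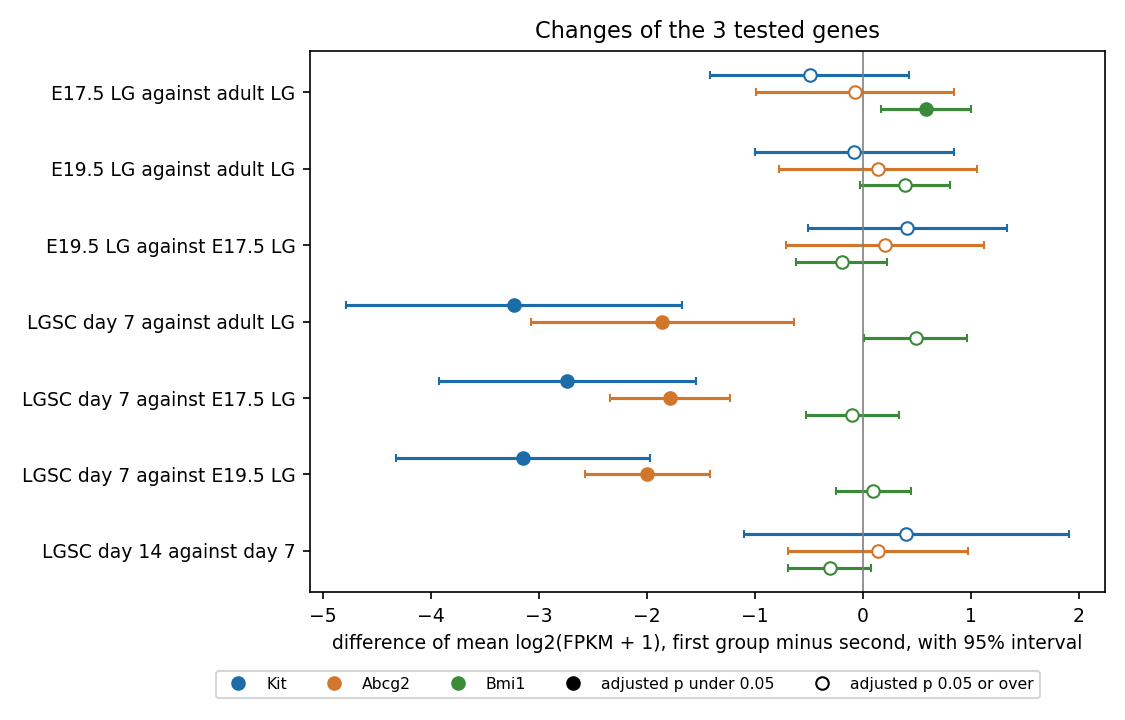
Difference of mean log2(FPKM + 1) between the groups named at left, first minus second, for Kit, Abcg2 and Bmi1, with the 95% interval of the limma fit and filled points where the adjusted p is under 0.05. Kit and Abcg2 are filled and below 0 in the 3 comparisons of day 7 spheres with gland, and Bmi1 is filled for E17.5 against adult LG.

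Trp63, the basal cell factor, was read at a trace in the 20 libraries. It was at 0.322, 0.427 and 0.186 FPKM in day 7 spheres and reached 0.7499 FPKM in day 14 replicate 2, on 56 reads. The other spheres held 0.154 and 0.0351 FPKM (day 5), 0.189, 0.310 and 0.0827 FPKM (day 10), and 0.0401 and 0.215 FPKM (day 14 replicates 1 and 3). Adult LG held 0, 0.113 and 0.125 FPKM, E17.5 LG 0.0306, 0.0124 and 0.134 FPKM, and E19.5 LG 0.0273, 0.0133 and 0.0152 FPKM. Day 7 spheres lay above all gland libraries, on 14 to 28 reads against 0 to 9, and the share of all genes that did so is not given here. Without the filter on low values, the difference was called against E19.5 LG (0.36, adjusted p = 0.018, limma), and not against adult LG (0.28, adjusted p = 0.128) or E17.5 LG (0.31, adjusted p = 0.0541). In passage 10 Trp63 was at 43.0 FPKM (8570 reads, 95% counting interval 42.0 to 43.9), above 90.2% of the genes over 1 FPKM there, so that the day 7 mean of 0.312 FPKM was 0.00726 of it.

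Genes bound by p63 in basal epithelia were measured more fully. Of 25 in this list, 15 were tested between day 7 spheres and adult LG, with 6 higher, 2 lower and a median of 0.63 against -0.08 over all genes, of which 35.2% were called. Pkp1, a plaque protein of desmosomes, was higher by 7.16 (SE 0.41, adjusted p = 0.00016, limma), while the chromatin organiser Satb1 was lower (-2.52). Against E17.5 LG, 9 of 14 were higher and 2 lower, and against E19.5 LG 9 of 13 were higher and 1 lower, where 47.6% and 50.7% of all tested genes were called, with Pkp1 and the membrane protein Perp changing most upward in each. In passage 10, 24 of the 25 exceeded 1 FPKM, and for 18 of those the day 7 mean was under 0.1 of that level. Of all genes at 1 FPKM or more there, 40.36% were. The desmosomal cadherin Dsg3 and the cell cycle regulator Sfn were among the 5 listed at 0 in all 20 libraries and stood at 184 and 526 FPKM in passage 10.

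Sox2 was listed at 0 in all 20 libraries, where 3 reads would have given 0.151 to 0.605 FPKM. Passage 10 held 2.84 FPKM on 139 reads (95% counting interval 2.39 to 3.36). Among 10 other Sox genes, Sox9 and Sox10 were also listed at 0 in all 20 libraries, and Sox9 stood at 51.8 FPKM in passage 10 while Sox10 was at 0.0155. Of the 5 tested between day 7 spheres and adult LG, all were called, beside 35.2% of all tested genes. Sox4, Sox11 and Sox21 were higher and the endothelial factors Sox17 (-4.22, SE 0.57, adjusted p = 0.0026, limma) and Sox18 (-4.81) were lower. Sox21, of the Sox2 subfamily, was higher by 4.17. The pluripotency factors Pou5f1 and Nanog were at most 0.114 and 0.765 FPKM in the 20 libraries and at 0 and 0.0188 FPKM in passage 10, and Klf4 was listed at 0 in the 20 and at 111 FPKM in passage 10.

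Cd44, the hyaluronan receptor, was above 0 in all 11 sphere libraries, on 9 to 34 reads. Spheres held 0.469 and 0.588 FPKM (day 5), 0.239, 0.642 and 0.346 FPKM (day 7), 0.5004, 0.173 and 0.290 FPKM (day 10), and 0.348, 0.182 and 0.178 FPKM (day 14). Gland libraries held 0.228, 0.245 and 0.184 FPKM at E17.5, 0.0506, 0.0657 and 0.132 at E19.5, and 0, 0.0466 and 0.0193 in adult LG. The 3 gland ages did not overlap, E17.5 being highest and adult lowest. Of all tested genes, which leave out Cd44, 32.3% at E17.5 and 33% at E19.5 lay wholly above adult LG. The share with E17.5 above E19.5 is not given here. Without the filter on low values the difference of E17.5 from adult LG was called (0.25, adjusted p = 0.00439, limma) on 38 reads against 2, as were 11605 of 39835 genes. In passage 10 Cd44 was at 205 FPKM (33061 reads), and the day 7 mean of 0.409 FPKM was 0.00199 of it.

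Ligands, synthases and anchors of Cd44 were tested in larger part. Has2, the main hyaluronan synthase, was higher in day 7 spheres than in adult LG (4.11, SE 0.42, adjusted p = 0.00094, limma) and lower than in E17.5 LG (-1.19, adjusted p = 0.031). The ligand Spp1, osteopontin, had means of 189 to 2134 FPKM in the sphere groups, 143 FPKM in adult LG and 1.61 and 1.94 FPKM in E17.5 and E19.5 LG. It was higher in day 7 spheres than in E17.5 LG (6.41, adjusted p = 0.00039), and against adult LG it gave 3.58 (SE 1.87, adjusted p = 0.18). Moesin (Msn), which ties Cd44 to actin, was higher in day 7 spheres than in all 3 gland groups (3.75, 2.23 and 2.12 against adult, E17.5 and E19.5 LG). Of the 14 genes in this list, 4 of 12 tested were higher and 1 lower against adult LG, close to the 35.2% of all tested genes called, with a median of 1.49 against -0.08 over all genes.

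Ly6a, which encodes Sca1, was listed at 0 in 13 of the 20 libraries and had 11 reads over all of them, 5 of these in day 14 replicate 2 (0.466 FPKM). Passage 10 held 392.6 FPKM on 11252 reads, above 99.3% of the genes over 1 FPKM there. Ly6a belongs to a family of close copies, and how reads shared between copies were counted is not given in the sources used here. Of 14 other family members, 8 were tested between day 7 spheres and adult LG, with 0 higher and 4 lower and a median of -0.93 against -0.08 over all genes, of which 21.1% were lower. Ly6g6d (-4.09, SE 0.70, adjusted p = 0.0061, limma), Gpihbp1 (-3.33) and Ly6c2 (-2.14) were lowest, and Ly6c1 was lower as well (-1.55), although it stood at 10.1 FPKM in passage 10, above its adult LG mean of 3.01. Ly6d, a marker of stratified epithelial progenitors, was higher in day 7 spheres than in E17.5 LG (5.61, SE 1.19, adjusted p = 0.0097) and E19.5 LG (3.42, adjusted p = 0.042), and Ly6e was higher by 3.81 and 2.24.

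Prom1, which encodes CD133, was at 0 to 0.319 FPKM in the 20 libraries and at 2.61 FPKM in passage 10 (445 reads). Of its exonic bases, 5.91% are shared with Gm16401 on the opposite strand, and whether strand was used in counting is not given in the sources used here. Over days 5, 7, 10 and 14, replicate 1 held 0.0164, 0.181, 0.205 and 0.266 FPKM and replicate 2 held 0.0206, 0, 0.0543 and 0.0627, while replicate 3 held 0.0778, 0.193 and 0.319 from day 7 on. Later days were higher in 7 of 8 steps, on at most 19 reads per library, a count made after the values were seen. How many of all genes rose in as many steps was not counted, so the count is not read as a trend. Its slope without the filter on low values was 0.03 per day (adjusted p = 0.297, limma).

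Nes was at most 0.136 FPKM in the 20 libraries, on 7 reads in E17.5 LG replicate 3, and was listed at 0 in 8 of them. All 3 E17.5 libraries had reads (0.100, 0.0323 and 0.136 FPKM), and 1 of 3 day 7 sphere libraries had any (0.0174 FPKM, 1 read). In passage 10 it stood at 3.46 FPKM (528 reads), so the day 7 mean was 0.00168 of it. Vim, the filament that nestin assembles with, was lower in day 7 spheres than in E17.5 LG (-2.79, SE 0.12, adjusted p = 1.4e-05, limma) and E19.5 LG (-2.97), with means of 0.183 FPKM in day 7 spheres and 7.18 and 8.28 FPKM in the embryonic glands. In passage 10 Vim stood at 9.58 FPKM, above these means. Of 7 intermediate filament genes, 6 were tested against E17.5 LG, of which Des (-3.85), Vim and Sync (-0.48) were lower and 0 were higher, with a median of -0.35 against -0.10 over all genes. This count is close to the 47.6% of all tested genes called there.

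**Figure D4:**
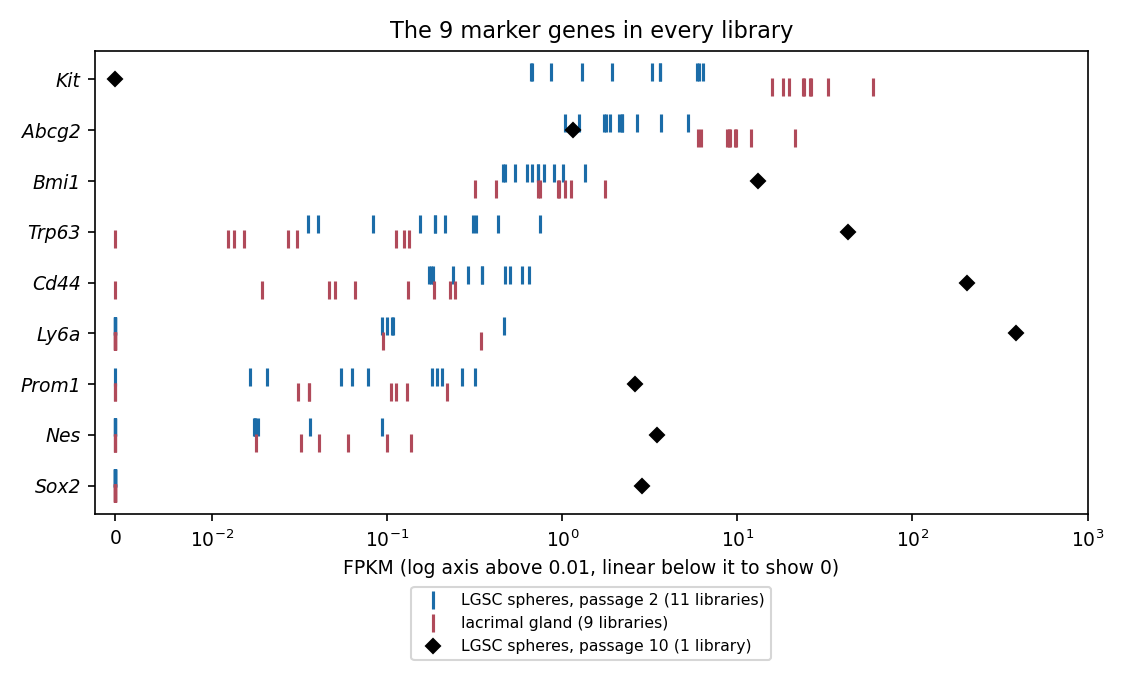
FPKM of the 9 genes in every library on an axis that is logarithmic above 0.01 and linear below it, with ticks for the 11 passage 2 sphere libraries (blue) and the 9 gland libraries (red) and a diamond for passage 10. Trp63, Cd44, Ly6a, Prom1, Nes, Sox2 and Bmi1 have their passage 10 diamond above all other libraries, Abcg2 has it among the passage 2 spheres, and Kit has it at 0.

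Set against passage 10, the 9 genes fell into unequal groups. For Cd44, Ly6a, Trp63, Prom1, Nes, Sox2 and Bmi1 the day 7 mean was under 0.1 of the passage 10 level. Of 12528 genes at 1 FPKM or more in passage 10, 40.36% were under 0.1 in this way. Abcg2 was at 1.72 times its passage 10 level at day 7, and Kit was at 2.82 FPKM against 0. Among the 4 members at 10 FPKM or more in passage 10, Ly6a, Cd44, Trp63 and Bmi1, none reached 0.1, as against 50.52% of genes of that level under 0.1. Passage number and the making of the table differ together here, so they cannot be told apart.

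**Figure D5:**
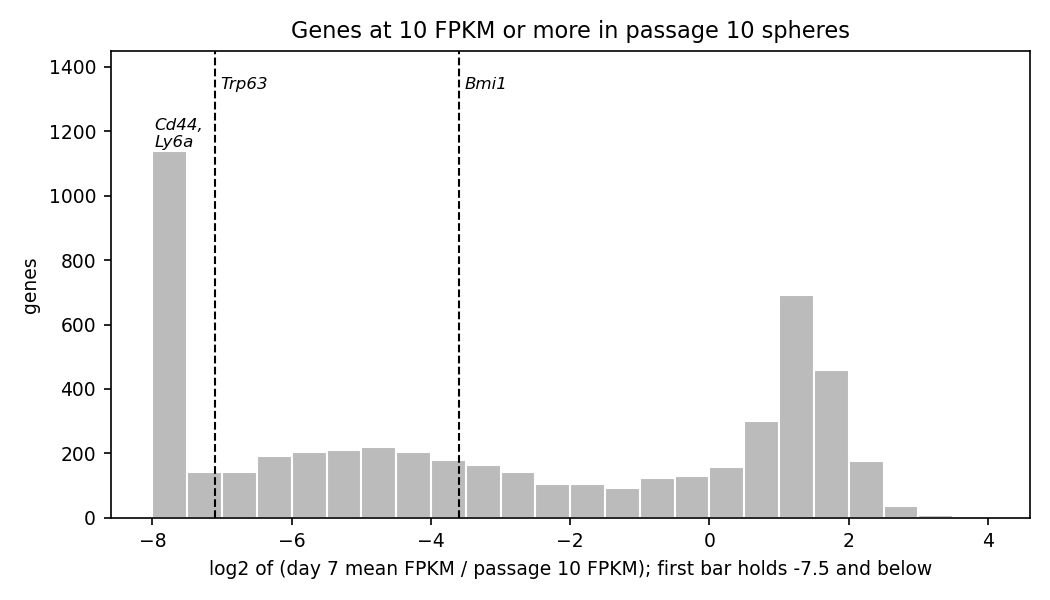
Number of genes (vertical axis) by log2 of the day 7 mean FPKM over the passage 10 FPKM, for the 5327 genes at 10 FPKM or more in passage 10, with dashed lines at Trp63 and Bmi1. Ly6a and Cd44 lie in the first bar, which holds 1138 genes, and the second hump has its tallest bar, 692 genes, between 1 and 1.5.

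Other stem and progenitor markers on a separate list of 15 genes also divided, with 12 over 1 FPKM in passage 10. Of those, 9 were under 0.1 of that level at day 7, beside 40.36% of all genes at 1 FPKM or more in passage 10. Of 9 tested against adult LG, 2 were higher in day 7 spheres, the adhesion molecule Mcam (3.63, SE 0.35, adjusted p = 0.00083, limma) and the neurotrophin receptor Ngfr (2.49), and 3 were lower, Thy1 (-4.16), Eng (-2.05) and Aldh1a1 (-1.27), with a median of -0.31 against -0.08 over all genes, of which 35.2% were called. Aldh1a1 stood at 5.53 FPKM in passage 10, above its adult LG mean of 1.56. Thy1 and Eng are also genes of stroma and vessels, and the fibroblast markers summed to at most 1.41 FPKM in spheres and to at least 165 FPKM in the glands. Their part in these differences was not tested.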

How the data were processed

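RNA-seq libraries of LGSC spheres and LG were made from poly-A RNA with the NEBNext Ultra kit. The labels' processing notes name CASAVA 1.8, HISAT2 2.0.5, featureCounts 1.5.0-p3 and build NCBIM37. The authors deposited 1 table per library with FPKM values per gene. The 20 passage 2 and gland tables list 52636 Ensembl identifiers and 11226 assembled loci, and the passage 10 table the same identifiers and 111 loci. Exon lengths from GENCODE M21 (GRCm38, another build than the one named, used for names, lengths and positions) matched 52403 identifiers and turned 92.6% to 93.6% of low values into whole reads within 0.01. Counting intervals (exact Poisson, 95%) and limits at 3 reads cover counting error only.

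Tests used limma 3.58.1 (R 4.3.3, eBayes with trend) on log2(FPKM + 1), which understates changes of low genes, for genes that averaged 0.5 FPKM or more over the libraries fitted together. P-values were adjusted over all genes. The 3 gland groups shared 1 fit, day 7 spheres and each gland group had a fit of their own, and the slope used the 11 passage 2 sphere libraries. Comparisons that share adult LG or day 7 libraries are not independent. Alternatives were a pseudocount of 0.1, no filter, rescaled libraries, a replicate block, limma-voom on recovered reads, all 20 libraries in 1 fit, other forms of the slope and leaving out each replicate. Same-numbered libraries, by the replicate numbers in the labels, deviated together only in culture (correlations 0.255 to 0.600 for day 14 and day 7 and 0.260 to 0.719 over all days), so the numbers were taken to pair libraries there and not between gland ages or between spheres and gland. The fits were tested on simulated counts with the same spread setting for every gene, no pairing of libraries and changes only in genes above the levels of Bmi1. That test does not bear on genes as low as Bmi1, on paired spheres or on a spread as wide as that of Kit. Passage 10 was compared by value only.

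All 9 members are named. Other genes come from lists by role, with at most the 3 largest called changes and direct partners named, and Sox4, Sox11, Dsg3, Sfn, Eng, Aldh1a1 and Abcb1a were added after their values were seen. Some genes that the rule names are not reported here. Members and lists were chosen with earlier results of these data known. Promoter windows are from RefSeq (GRCm38.p6), which matched 7 of the 9 members.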

Additional observations from a re-analysis of the deposited data

Results flagged for a closer look

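Passage 10 spheres entered no test, and 8 of the 9 genes were above the level of 3 reads in that library. Ly6a was at 392.6 FPKM, Cd44 at 205.2, Trp63 at 42.95, Bmi1 at 13.16, Nes at 3.46, Sox2 at 2.841, Prom1 at 2.608 and Abcg2 at 1.145 FPKM. There, 3 reads correspond to 0.0142 to 0.105 FPKM depending on the length of the gene. Among these 8, only Abcg2 was not above its highest level in the other 20 libraries. Of all genes at 10 FPKM or more there, 50.52% had a day 7 mean under 0.1 of it. The cause was not tested.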

How the results depend on the processing

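Of 357 values of Kit, Abcg2 and Bmi1 under another setting, 326 kept their direction and their side of the threshold, 15 changed sign, 8 gained a call and 9 lost one, with 1 of these both changing sign and gaining a call. In E17.5 against adult LG, the count of members called (1) became 2 without the filter on low values and 0 with limma-voom on recovered reads, with or without the replicate block, and was 0 to 2 when single replicates were left out. In E19.5 against adult LG (0) it became 1 with all 20 libraries in 1 fit and was 0 to 2 with replicates left out, and in day 7 spheres against adult LG (2) it became 1 without the filter and 3 with all 20 libraries in 1 fit, and was 1 to 3 with replicates left out. For the slope over culture days (0) it became 1 with limma-voom and the replicate block, whose 1 call was Kit. The block changed no other call beyond these, and blocked fits between gland ages or between spheres and gland rest on numbers that did not pair the libraries. On the log2 scale, Abcg2 in E19.5 against adult LG became -0.119 with limma-voom and -0.114 with limma-voom and the block, Bmi1 in day 7 spheres against E17.5 LG became 0.0154 with limma-voom, and the slope of Abcg2 became 0.0215 on days 7, 10 and 14 alone, all with the sign changed. Leaving out single replicates also changed signs. In E17.5 against adult LG, Kit then ranged from -0.915 to 0.0109 and Abcg2 from -0.361 to 0.485, both highest without adult LG replicate 3. In E19.5 against adult LG, Kit ranged from -0.502 to 0.424 and Abcg2 from -0.153 to 0.693, again highest without that library. Bmi1 in day 7 spheres against E17.5 LG ranged from -0.191 to 0.0637, positive only without E17.5 LG replicate 3. In day 14 against day 7, Kit ranged from -0.0691 (without day 7 replicate 2) to 0.946 and Abcg2 from -0.127 (without day 14 replicate 3) to 0.399. The slope of Abcg2 ranged from -0.0575 to 0.0185 (without day 5 replicate 2). The cause of these changes was not tested. Rescaling moved the share of higher calls over all genes from 64.1% to 51.4% in E19.5 against E17.5 LG, where no member was called. Depth limits Bmi1, with 4 reads in 2 of the adult libraries.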

Other observations

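Genes whose pattern was most like that of a member were ranked by Pearson's r of log2(FPKM + 1) over the 20 passage 2 and gland libraries, which share groups and depth, so r is a description. For Kit these were Fzd4, a Wnt receptor (r = 0.976, n = 20), AI467606 (0.968) and Gpsm3 (0.966). For Abcg2 they were Rgs16 (0.952) and Cys1 (0.943). For Bmi1 the highest were Zfp292 (0.842), Gm45508 (0.811) and 1700006J14Rik (0.799). Fzd4 had a mean of 3.89 FPKM over the 11 sphere libraries and of 21.7, 16.4 and 15.7 FPKM in adult, E17.5 and E19.5 LG. Rgs16 had 1.03 FPKM in spheres and 22.9 and 14.9 FPKM in adult and E17.5 LG. Zfp292 differed less, with 12.2 FPKM in spheres and 9.72, 20.4 and 16.8 FPKM in the glands.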
